A study of Mus musculus with 6 samples.

Results

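The transcripts of 9 collagen chain genes, Col1a1, Col1a2, Col3a1, Col5a1, Col5a2, Col5a3, Col11a1, Col11a2 and Col12a1, were followed in mouse bone marrow stromal cells differentiated with or without nickel. The genes were taken by symbol from the gene annotation that accompanies the counts, where all 9 were found among 54532 genes, and each was joined by its gene identifier to the counts and to the FPKM values (counts scaled by gene length and by library). They encode chains of collagen types I, III, V, XI and XII. Primary bone marrow mesenchymal stem cells (mBMSCs) of wild type mice were kept for 7 days in osteogenic medium with ascorbic acid, β-glycerophosphate and dexamethasone, in 3 Control cultures without added nickel and 3 Ni cultures with 0.1 μM nickel ion. The labels give 100 nM dexamethasone and the methods of the study give 1 nM. Bulk RNA of each culture was sequenced from fragmented mRNA with random primers. Nothing states whether the 3 cultures of a group came from separate animals, and the p-values therefore measure the spread between these cultures.

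Fibrillar collagen is the main protein of bone and gives the matrix its tensile strength. Each chain carries a long uninterrupted stretch of Gly-X-Y triplets, since only glycine fits the centre of the helix that 3 chains wind together. Type I collagen joins a pair of α1 chains, from Col1a1, with an α2 chain, from Col1a2. Type III collagen is made of α1 chains from Col3a1 alone and is known from extensible tissues and early matrix. Chains of types V and XI enter type I and type II fibrils in small amounts, begin their assembly and limit their width. Collagen XII, from Col12a1, belongs to the fibril-associated collagens, which sit on the surface of fibrils and do not form fibrils themselves.

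The coding sequences show this difference. A stretch of 3 consecutive glycine repeats from the longest uninterrupted run of each gene is printed here, read 5′ to 3′ along the coding strand from GENCODE M21 transcripts (GRCm38), with the glycine codons in capitals. The stretch is the first one of the run that falls within a single coding exon.

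Col1a1: GGTccttctGGTcctcgtGGTctccct
Col1a2: GGTttaatgGGAcccagaGGCcctcct
Col3a1: GGAgtgggaGGAatgggtGGCtatccg
Col5a1: GGAccagctGGCccaatgGGTctcacc
Col5a2: GGTcctgttGGCccaagaGGAcctcag
Col5a3: GGGccccctGGTccagtaGGGctcact
Col11a1: GGCcctcctGGCccaatgGGTcttact
Col11a2: GGGccccctGGCcccatgGGTtacacg
Col12a1: GGTcgccagGGAatgaaaGGTgatgca

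These stretches lie at chr11:94939697-94939723 on the plus strand for Col1a1, chr6:4515210-4515236 (plus) for Col1a2, chr1:45323762-45323788 (plus) for Col3a1, chr2:27964080-27964106 (plus) for Col5a1 and chr1:45423700-45423726 (minus) for Col5a2. Those of the remaining genes lie at chr9:20801234-20801260 (minus) for Col5a3, chr3:114105402-114105428 (plus) for Col11a1, chr17:34051274-34051300 (plus) for Col11a2 and chr9:79612943-79612969 (minus) for Col12a1. The uninterrupted run of glycine triplets held 338 triplets in Col1a1, 339 in Col1a2, 344 in Col3a1, 338 in Col5a1, 339 in Col5a2, 337 in Col5a3, 338 in Col11a1 and 338 in Col11a2. In Col12a1 the longest run held 32 triplets, or 3.13% of the coding bases, against 55.2% in Col5a1 and 74.1% in Col1a2, the lowest and highest shares of the other 8 genes. By its sequence Col12a1 is therefore not a fibrillar chain, and it is described here as a fibril-associated one. Proline codons filled 41.6% of the Y positions of the Gly-X-Y triplets in Col3a1, the position at which proline is hydroxylated, and between 27.7% (Col1a2) and 34.3% (Col1a1) in the other 7 fibrillar genes.

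The genes are spread over 7 chromosomes, in the GRCm38 coordinates of the deposited annotation. Col1a1 spans chr11:94936224-94953042 with 51 coding exons, and Col1a2 spans chr6:4504814-4541544 with 52. Col3a1 (chr1:45311538-45349706, plus strand) and Col5a2 (chr1:45374321-45503282, minus strand) lie side by side on opposite strands. Col5a1 spans chr2:27886425-28039514, Col5a3 chr9:20770050-20815067, Col11a1 chr3:114030540-114220718, Col11a2 chr17:34039437-34066685 and Col12a1 chr9:79598991-79718831. The counts are per gene and do not separate transcripts. A miRNA gene, Gm47302, shares 141 bases or 1.44% of the exon sequence of Col3a1 on the same strand. A pair of noncoding transcripts on the opposite strand share 2.50% of that of Col5a1, and since no strand setting is stated, reads of those bases could be counted for either gene. The other 7 genes share no exon base with another gene.

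The libraries held between 16101033 and 18642504 counts, and each of the 9 genes was among the 14624 that passed the filter on low counts. Control replicate 3 stood apart from its group: over all genes tested its mean distance (1 minus Pearson's r) was 0.0131 to the Ni libraries and 0.0220 to the other controls. No gene was targeted that could check its label. Whether the label or the culture of Control replicate 3 differs from the other controls therefore cannot be told apart. This bears on every control value and on every value given without that library. By the same distance Ni replicate 2 lay nearer to Control replicate 3 (0.0119) than to Ni replicate 1 (0.0157) or Ni replicate 3 (0.0162). The fold changes, calls, ratios, shares of counts and some parts of the summed FPKM of the 9 genes are given with and without Control replicate 3. For the lists of related genes only counts of edgeR calls are also given without it. Their fold changes, the marker genes, levels and correlations rest on all libraries. The cell type label was checked against marker genes. All 9 osteoblast markers were detected, and their summed level ran from 5317 to 11944 CPM (counts scaled by library size and TMM factor) in the controls and from 11229 to 16350 CPM in the Ni libraries. The 10 stromal markers summed to 2573 to 2952 CPM and 2206 to 2335 CPM. Most of that sum was Cxcl12, at 2304, 2143 and 1767 CPM in the controls and 1508, 1609 and 1355 CPM in Ni. The median log2 fold change of the 10 stromal markers was 0.11. The 13 macrophage markers, also none of them at 0, summed to 25550.2 to 30638 CPM and 25736 to 26573 CPM. Macrophage transcripts were thus abundant in these cultures beside those of the osteoblast lineage. Adipocyte markers, mostly Lpl, summed to 554 to 882 CPM and 471 to 634 CPM, and endothelial markers to 43.7 to 72.2 CPM and 41.1 to 46.0 CPM.

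The mRNAs of both type I chains were higher in every Ni library than in any control, by 2.19-fold for Col1a1 and 1.96-fold for Col1a2. The type V chains Col5a1 and Col5a2, the type XI chains Col11a1 and Col11a2 and the fibril-associated Col12a1 were likewise higher in every Ni library, by 1.57-fold (Col12a1) to 3.85-fold (Col11a2). Col3a1, at 1.38-fold, and Col5a3, at 1.15-fold, were the members that differed least, and their groups overlapped. No member passed an adjusted p of 0.05 by edgeR's quasi-likelihood test with all 6 libraries, and Control replicate 3 was the highest control for 8 of the 9 genes.

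**Figure D1:**
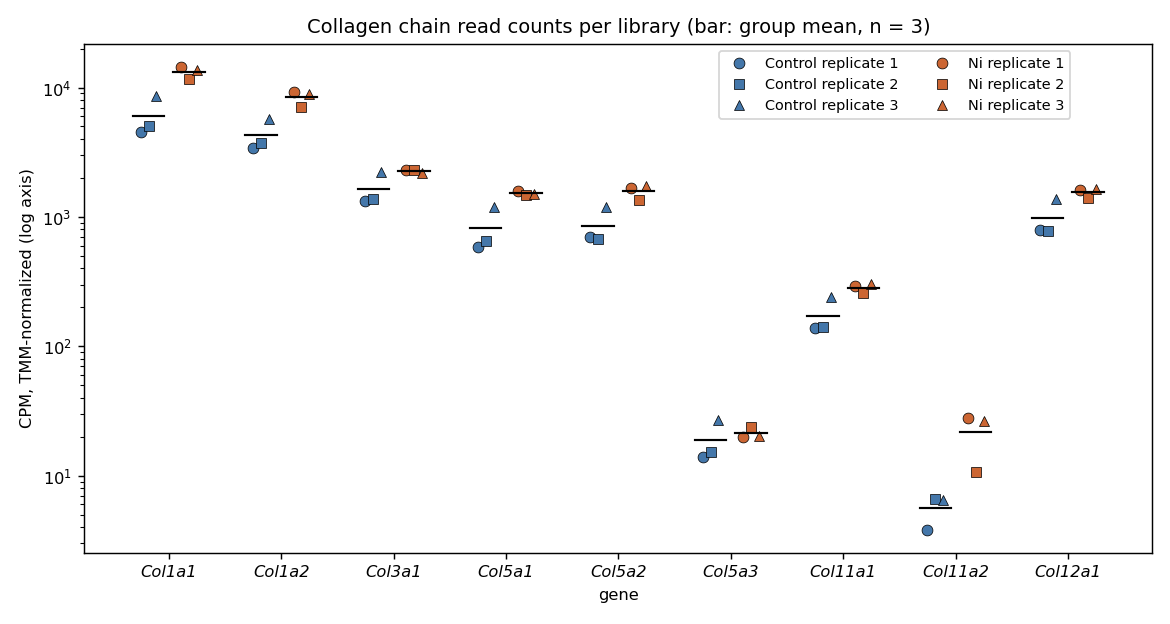
CPM (TMM-normalized, log axis) of the 9 genes in the 3 Control and 3 Ni libraries, each replicate with its own symbol and the group mean as a bar. Control replicate 3 (blue triangle) is the highest control for every gene but Col11a2, and the Ni points lie above all control points for 7 genes but not for Col3a1 and Col5a3.

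Col1a1, which encodes the main chain of bone matrix, stood at 4506, 5039 and 8536 CPM in Control replicates 1, 2 and 3 and at 14381, 11589.8 and 13577 CPM in the Ni replicates. Col1a2 stood at 3426, 3742 and 5689.9 CPM in the controls and at 9189.5, 7121 and 8929 CPM in the Ni libraries. For both genes Control replicate 3 was the highest control and Ni replicate 2 the lowest Ni library, and the groups stayed apart. The log2 fold change of Col1a1 was 1.13 with a standard error of 0.24 (adjusted p = 0.212, edgeR). That of Col1a2 was 0.97 with a standard error of 0.21 (adjusted p = 0.210). Both passed without Control replicate 3, at log2 fold changes of 1.47 for Col1a1 (adjusted p = 4.01e-05) and 1.24 for Col1a2 (adjusted p = 8.28e-05).

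Col3a1, the only chain gene of type III collagen, had 1336, 1386 and 2205 CPM in the controls and 2302, 2312 and 2177 CPM in the Ni libraries. The Ni libraries lay close together, and Control replicate 3 fell within their range. The log2 fold change was 0.46 with a standard error of 0.19 (edgeR, adjusted p = 0.350), and an exact two-sided permutation test of the CPM gave p = 0.2. Without Control replicate 3 the log2 fold change was 0.74 (edgeR, adjusted p = 0.000238).

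Col5a1, the α1 chain found in nearly every type V molecule, had 588, 655 and 1199 CPM in the controls and 1579.7, 1475 and 1502 CPM in the Ni libraries. Col5a2, the α2 chain that partners it, had 699.8, 676 and 1184 CPM against 1684, 1354 and 1727 CPM. Both separated the groups, and in both Control replicate 3 lay between the other controls and the Ni libraries. Their log2 fold changes were alike, at 0.90 with a standard error of 0.25 for Col5a1 (adjusted p = 0.292, edgeR) and 0.90 with a standard error of 0.22 for Col5a2 (adjusted p = 0.249). Col5a3, a less widespread type V chain, behaved otherwise. It had 13.9, 15.3 and 26.9 CPM in the controls and 20.03, 23.8 and 20.4 CPM in the Ni libraries, so that the highest value of all belonged to Control replicate 3. Its log2 fold change of 0.20 was smaller than its standard error of 0.23 (edgeR, adjusted p = 0.758). Without that library it was 0.56 (adjusted p = 0.0184), but without Control replicate 1 it was 0.020 (adjusted p = 0.993) and without Control replicate 2 it was 0.073 (adjusted p = 0.983). For Col5a1 and Col5a2 the value without Control replicate 3 was 1.29 (adjusted p = 3.02e-05) and 1.21 (adjusted p = 6.73e-05).

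Col11a1, which forms type XI collagen in cartilage and joins type V chains in other tissues, had 138, 139.7 and 239 CPM in the controls and 294, 258 and 301 CPM in the Ni libraries. Its log2 fold change was 0.72 with a standard error of 0.21 (adjusted p = 0.293, edgeR), and 1.04 without Control replicate 3 (adjusted p = 6.55e-05). Col11a2, its partner chain, was the lowest of the genes in the controls and in Ni replicate 2, with 70, 105 and 109 counts in the control libraries and 513, 184 and 482 in the Ni libraries. In CPM these were 3.82, 6.61 and 6.54 against 27.8, 10.6 and 26.6. Here Control replicate 3 was not apart from the other controls, and Ni replicate 2 lay nearer to the controls than to the other Ni libraries. The log2 fold change of Col11a2 was 1.94 with a standard error of 0.39 (adjusted p = 0.212, edgeR), the largest of the 9 genes. Col11a2 was also the member that did not pass without Control replicate 3, at a log2 fold change of 2.07 and an adjusted p of 0.0902.

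Col12a1, whose product binds the fibril surface, had 795, 777 and 1384 CPM in the controls and 1625, 1393 and 1636 CPM in the Ni libraries. Control replicate 3 and Ni replicate 2 were separated by less than the spread within either group. The log2 fold change was 0.66 with a standard error of 0.22 (edgeR, adjusted p = 0.311), and 0.99 without Control replicate 3 (adjusted p = 8.91e-05).

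**Figure D2:**
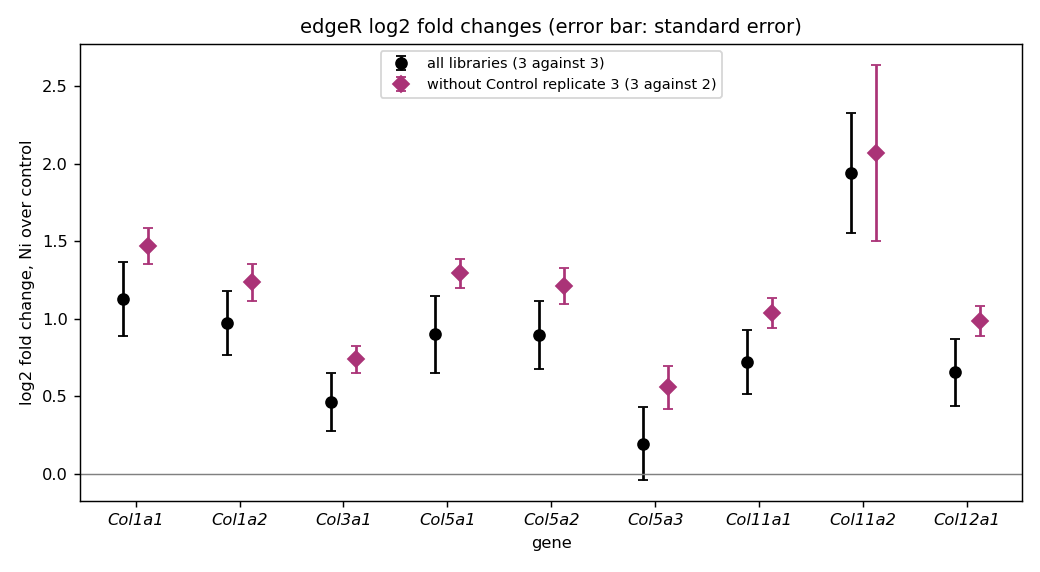
The edgeR log2 fold change of Ni over Control (vertical axis) for each gene, with its standard error, from all 6 libraries (black circles) and without Control replicate 3 (purple diamonds). All 9 estimates are above 0 in both fits, from 0.20 for Col5a3 to 1.94 for Col11a2 with all libraries, and the standard errors of all genes but Col11a2 are smaller without Control replicate 3.

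Counted together, 0 of the 9 genes passed an adjusted p of 0.05 by edgeR, as did 0.0% of the 14624 genes tested. At an unadjusted p under 0.05, 8 of the 9 were higher in Ni, all but Col5a3, and 0 were lower. Over the genes tested the shares were 7.59% higher and 5.83% lower. All 3 Ni libraries lay above all 3 controls for 7 of the 9 genes, and for 7.97% of the genes tested. The exact two-sided permutation test gives p = 0.1 for each of these 7, the smallest value that 3 libraries against 3 allow. The median log2 fold change of the 9 genes was 0.90, against -0.01 over all genes tested. Leaving out Control replicate 3, 8 of the 9 passed an adjusted p of 0.05 and were higher, against 8.69% of all genes, and the median was 1.21. DESeq2 with all libraries called 7 of the 9, all but Col3a1 and Col5a3, where it called 1.49% of its genes as higher. Without Control replicate 3 it called all 9, and 8.87% of its genes as higher.

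The 9 genes together took 1.16%, 1.23% and 2.06% of all counts in the control libraries and 3.07%, 2.55% and 3.01% in the Ni libraries. The 95% Wilson intervals were 1.15% to 1.16% for Control replicate 1, the lowest, and 3.07% to 3.08% for Ni replicate 1, the highest, and cover counting error only. The group means were 1.48% ± 0.501 (SD, n = 3) and 2.88% ± 0.282 (SD, n = 3), a ratio of 1.94, and the groups did not overlap (exact permutation test, two-sided, p = 0.1). The difference of 1.40 percentage points became 1.69 without Control replicate 3, at a mean of 1.19% in the other controls. In bulk RNA, more cells that make collagen and more collagen mRNA in each such cell cannot be told apart. The summed osteoblast markers moved in the same direction, but their groups overlapped. Control replicate 3 was again the highest control, at 11944 CPM, above Ni replicate 2 at 11229 CPM. Most of the sum was Spp1 and Ibsp. Taken singly, 9 of 9 osteoblast markers were higher in Ni at an unadjusted p under 0.05 (edgeR). The smooth muscle and pericyte markers summed to 692 and 737 CPM in Control replicates 1 and 2, to 1417 CPM in Control replicate 3 and to 1224 to 1328 CPM in the Ni libraries. The summed osteoclast markers went the other way, with 1136 and 1338.5 CPM in Control replicates 1 and 2 and 657 CPM in replicate 3. They came to 610.5 to 686 CPM in the Ni libraries. Most of this sum was Acp5, at 1013, 1190 and 417 CPM in the controls and 481, 506 and 415 CPM in Ni. The 4 osteoclast markers tested did not move together. Their log2 fold changes were -0.90 for Acp5, -0.83 for Mmp9, 0.62 for Ctsk and 0.24 for Atp6v0d2. Calcr, Ocstamp and Dcstamp were at 0 in some libraries. The part of these cell types in the collagen values was not tested.

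On a scale per length, the FPKM of the deposited table, the levels of the 9 genes in the controls spanned from Col1a1 to Col11a2. The control means were 911 ± 329 FPKM for Col1a1, 342 ± 97.2 for Col1a2, 166 ± 49.0 for Col3a1, 95.1 ± 39.0 for Col5a1, 88.2 ± 29.5 for Col5a2, 64.2 ± 22.4 for Col12a1, 13.4 ± 4.49 for Col11a1, 2.72 ± 1.04 for Col5a3 and 0.822 ± 0.230 for Col11a2 (SD, n = 3). In the Ni libraries the means were 1997 ± 226 FPKM for Col1a1, 673 ± 92.8 for Col1a2, 229 ± 7.26 for Col3a1, 178 ± 6.96 for Col5a1, 165 ± 21.8 for Col5a2, 101 ± 9.36 for Col12a1, 22.2 ± 1.87 for Col11a1, 3.13 ± 0.292 for Col5a3 and 3.16 ± 1.41 for Col11a2. The order of neighbouring genes was the same in all 6 libraries except for Col5a1 above Col5a2, in 4 of 6, and Col5a3 above Col11a2, in 4 of 6. Control ranges overlapped between Col3a1 and Col5a1, Col5a1 and Col5a2, and Col5a2 and Col12a1.

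These levels depend on the length by which counts are divided. The deposited lengths equal the merged exons of all GENCODE M21 transcripts for 8 of the 9 genes, which for Col1a2 comes to 12426 bases, or 2.32 times its longest coding transcript of 5348 bases. For Col1a1 the same ratio was 1.11, for Col3a1 1.76 and for Col5a1 1.01. With the length of the longest coding transcript in its place, a choice made after seeing the lengths, Col1a2 came to 795 FPKM in the controls where Col1a1 came to 1008 FPKM, and Col5a2 stood above Col5a1 in all 6 libraries. A ratio between chains is therefore tied to the length used, whereas the log2 difference of a ratio between the groups is not.

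Within each library, Col1a1 took a larger part of the collagen transcripts in Ni, and Col3a1, Col5a3, Col11a1 and Col12a1 a smaller part. The ratio of Col3a1 to Col1a1 FPKM was 0.198, 0.184 and 0.173 in the controls and 0.107, 0.133 and 0.107 in the Ni libraries. Control replicate 3, whose type I and type III levels were both high, thus lay with the other controls by this ratio. The means were 0.185 ± 0.0128 in the controls and 0.116 ± 0.0152 in Ni (SD, n = 3), a log2 difference of -0.68 with a standard error of 0.12. The groups did not overlap, at an exact two-sided permutation p of 0.1, the smallest possible, which is 0.16 after Benjamini-Hochberg adjustment over the 8 ratios compared.

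The ratio of Col5a3 to Col5a1 was 0.0295, 0.0291 and 0.0280 in the controls and 0.0158, 0.0201 and 0.0169 in the Ni libraries, a log2 difference of -0.72 with a standard error of 0.11 (exact permutation p = 0.1, adjusted p = 0.16). The ratio of Col12a1 to Col1a1 was 0.0760, 0.0664 and 0.0699 against 0.0487, 0.0518 and 0.0519, a log2 difference of -0.48 with a standard error of 0.06 and the same p-values. For both ratios all controls, replicate 3 included, were above all Ni libraries.

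Within type I, Col1a1 per Col1a2 was 2.49, 2.55 and 2.84 in the controls and 2.96, 3.08 and 2.88 in the Ni libraries. The difference was small, 0.18 on the log2 scale with a standard error of 0.06, and Control replicate 3 lay just under Ni replicate 3 (exact permutation p = 0.1, adjusted p = 0.16). Per longest coding transcript the control mean of this ratio was 1.25 and the Ni mean 1.42, in place of 2.63 and 2.97. Col5a1 per Col1a1 was 0.101, 0.100 and 0.109 in the controls and 0.0849, 0.0984 and 0.0855 in the Ni libraries, a log2 difference of -0.21 with a standard error of 0.08 in which Ni replicate 2 came close to the controls (exact permutation p = 0.1, adjusted p = 0.16).

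For the remaining 3 ratios the groups overlapped. Col5a2 per Col5a1, the partners of type V collagen, was 1.05, 0.913 and 0.874 in the controls and 0.944, 0.812 and 1.02 in the Ni libraries, a log2 difference of -0.04 with a standard error of 0.13 (exact permutation p = 0.8). Col11a1 per Col5a1 was 0.156, 0.142 and 0.133 against 0.124, 0.117 and 0.133 (exact permutation p = 0.2, adjusted p = 0.229). Col11a2 per Col11a1 was 0.0517, 0.0883 and 0.0510 against 0.176, 0.0766 and 0.165, a log2 difference of 1.09 with a standard error of 0.47, in which Ni replicate 2 lay among the controls (exact permutation p = 0.2, adjusted p = 0.229). Without Control replicate 3 the log2 differences were -0.73 for Col3a1 per Col1a1, -0.74 for Col5a3 per Col5a1, -0.48 for Col12a1 per Col1a1, -0.17 for Col5a1 per Col1a1 and 0.24 for Col1a1 per Col1a2. They were -0.09 for Col5a2 per Col5a1, -0.26 for Col11a1 per Col5a1 and 0.95 for Col11a2 per Col11a1, and 3 libraries against 2 cannot give an exact p under 0.2.

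**Figure D3:**
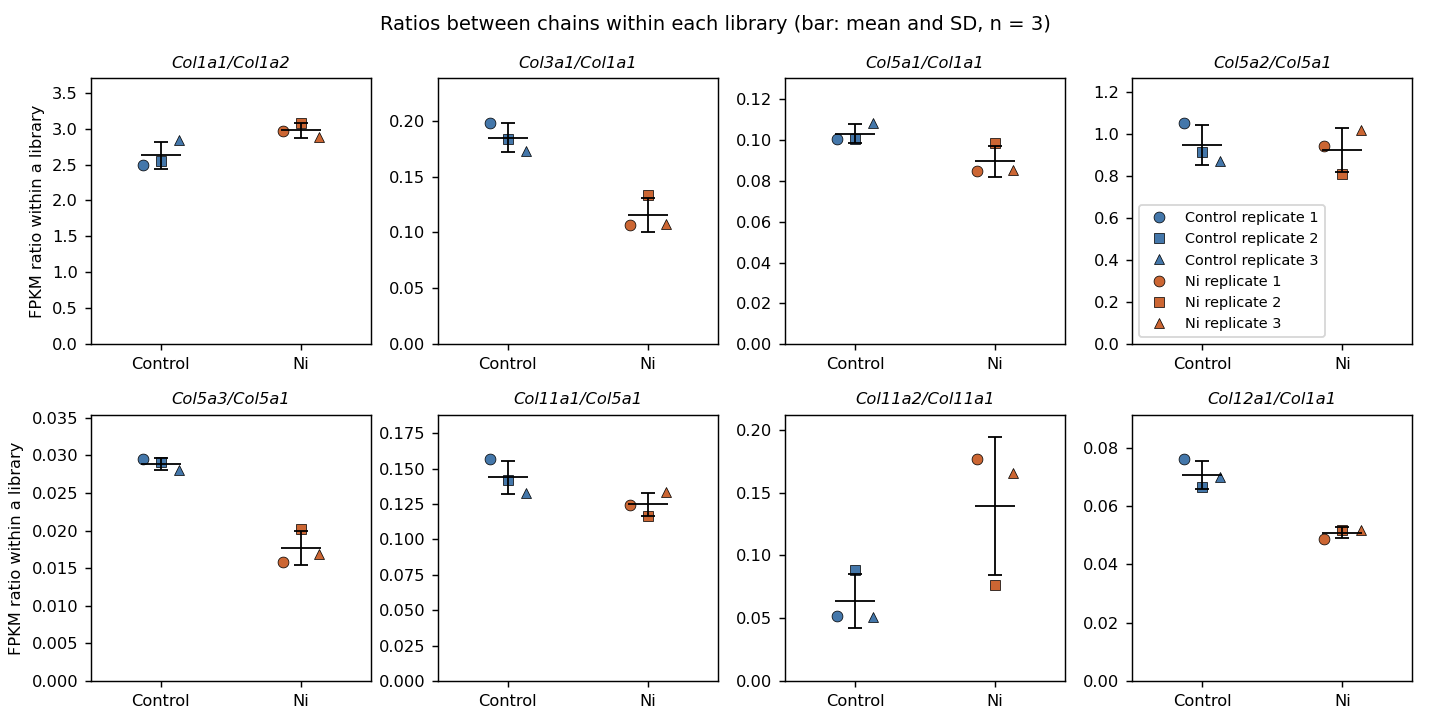
The 8 ratios between chains, as FPKM ratios within each library on axes that start at 0, for the 3 Control and 3 Ni libraries with the mean and SD. Col3a1/Col1a1, Col5a3/Col5a1 and Col12a1/Col1a1 are lower in all 3 Ni libraries than in any control, Control replicate 3 (blue triangle) included. That library is the lowest control for Col3a1/Col1a1 and Col5a3/Col5a1. Col5a2/Col5a1 overlaps.

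Expressed as parts of the summed FPKM of the 9 genes, Col1a1 made up 53.9% ± 1.25 in the controls and 59.2% ± 0.551 in the Ni libraries (SD, n = 3), without overlap. Col1a2 made up 20.6% ± 1.01 and 19.9% ± 0.758, with overlap. Both type I chains together came to 74.4% ± 0.725 and 79.1% ± 1.16 (exact permutation test, two-sided, p = 0.1), and with longest coding transcripts to 74.2% and 79.0%. Col3a1 made up 9.95% ± 0.456 in the controls and 6.86% ± 0.849 in the Ni libraries, and Col12a1 3.81% ± 0.207 and 3.01% ± 0.0830, both without overlap. Col5a3 (0.160% and 0.0940%) and Col11a1 (0.798% and 0.659%) were lower in every Ni library, and the parts of Col5a1 (5.57% and 5.30%), Col5a2 (5.25% and 4.88%) and Col11a2 (0.0505% and 0.0914%) overlapped. Without Control replicate 3 the control means were 53.3% for Col1a1, 10.2% for Col3a1 and 3.79% for Col12a1, and 74.4% for both type I chains. Col1a2, at 21.1% in these controls, then lay above all Ni libraries. A smaller part is not a lower level here, since no member had a negative log2 fold change.

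**Figure D4:**
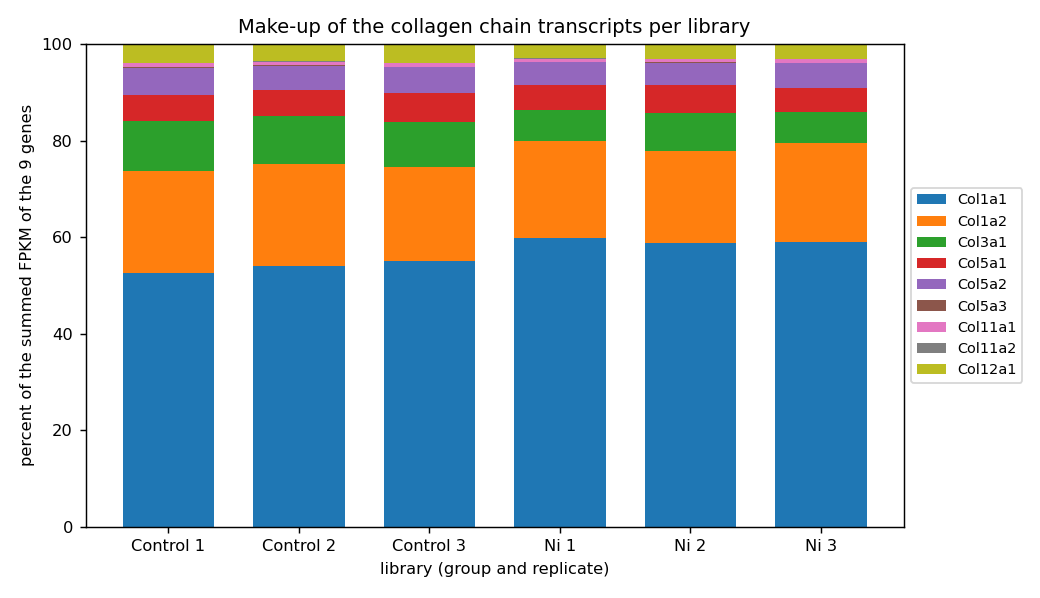
Each library's summed FPKM of the 9 genes set to 100%, divided by gene (vertical axis in percent). Col1a1 (blue) reaches from 52.6% to 55.1% in the controls and from 58.7% to 59.8% in the Ni libraries, and the Col3a1 part (green) is narrower in Ni.

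Across the 6 libraries most of the genes had a shared pattern. The median Pearson correlation of a gene's log2 CPM with the other 8 was from 0.937 (Col3a1) to 0.983 (Col5a2) for 7 genes, 0.83 for Col11a2 and 0.73 for Col5a3. The 6 points are the same libraries for each pair and include the difference between the groups. After the group means were taken out, the median was 0.97 for Col1a1 and Col11a1 and 0.45 for Col11a2. These deviations include those of Control replicate 3. Its log2 CPM lay above the mean of the other controls by 0.67 (Col1a2) to 0.95 (Col5a1), and by 0.37 for Col11a2. How far this library makes the shared pattern was not tested. The genes outside the family whose log2 CPM was most like the mean of Col1a1 and Col1a2 over the 6 libraries were Alx1 (r = 0.998), Pdgfrl (0.998), Cryab (0.998), Zfp862-ps (0.997) and Gpx7 (0.997). Their log2 fold changes were 1.29, 0.42, 0.94, 0.66 and 0.67, and Alx1 was at 0.376 CPM in the controls and 0.925 CPM in Ni. Of the genes tested outside the family, 29 had an r over 0.99 and 420 an r over 0.95.

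Windows of 300 bases around the start site, from the RefSeq promoters on GRCm38, were given for 6 of the 9 genes, and Col1a1, Col5a2 and Col12a1 had no entry. The letters CCAAT, to which the NF-Y factor is known to bind in the proximal promoter of Col1a2, were searched on both strands. They were found in Col1a2, Col5a3 and Col11a1, as printed here along the gene's strand with the motif or its reverse complement in capitals, and in 37.4% of all 32851 promoter windows.

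Col1a2, first match: aagaatggaaCCAATttaagaagcc
Col1a2, second match: tagccctcccATTGGtggagacgtt
Col5a3: tctcagccagCCAATcagcgcgtgg
Col11a1: gaggcctgtgATTGGgtatgacctt

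The matches lie in chr6:4505499-4505523 and chr6:4505608-4505632 for Col1a2, chr9:20815175-20815199 for Col5a3 and chr3:114030451-114030475 for Col11a1. Of these 3 genes, Col1a2 and Col11a1 were higher in every Ni library and Col5a3 was not. The letters GGGCGG, to which Sp1 is known to bind, were found in 5 of the 6 windows and in 35.7% of all windows, TATAAA in Col3a1 and Col11a2 and in 13.6%, and AACCACA, to which RUNX factors are known to bind, in none of the 6 and in 5.27%. No matches of different motifs overlapped. A match describes these letters only.

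Other genes of the collagen pathway were followed in lists by role, and in none of the lists did a gene pass an adjusted p of 0.05 by edgeR. DESeq2 called 25 of the 103 genes, all of them higher in Ni, where it called 1.49% of all its genes as higher. Of these 25, 7 bind the fibril surface, 6 modify or fold procollagen and 4 are network or other collagens. The list counts below stand against 7.59% higher and 5.83% lower of all genes at an unadjusted p under 0.05. Without Control replicate 3 the share of all genes higher at an adjusted p under 0.05 was 8.69%. Enzymes and chaperones that modify and fold procollagen in the endoplasmic reticulum were higher at an unadjusted p under 0.05 in 13 of 20 genes, with 1 lower and a median log2 fold change of 0.50. The largest log2 fold change, 1.16, was that of the galactosyltransferase gene Colgalt2, at 1.31 ± 1.00 CPM in the controls and 2.94 ± 0.707 CPM in Ni (SD, n = 3). The prolyl hydroxylase subunit gene P4ha2 had 48.9 ± 18.8 and 85.5 ± 6.68 CPM, and Serpinh1, the collagen chaperone HSP47, 674 ± 191 and 1122 ± 69.7 CPM. The lower gene, named after its value was seen, was Tmem38b, a channel of the endoplasmic reticulum, with a log2 fold change of -0.38. Without Control replicate 3, 15 of the 20 were higher and 1 lower at an adjusted p under 0.05.

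Among proteins that bind or cover the fibril surface, 13 of 17 genes tested were higher at an unadjusted p under 0.05, none was lower and the median log2 fold change was 0.72. Postn, encoding periostin, had 199 ± 105 CPM in the controls and 496 ± 129 CPM in Ni, a log2 fold change of 1.31 with a standard error of 0.38 (edgeR, adjusted p = 0.306). Fmod, encoding the fibril-binding proteoglycan fibromodulin, had a log2 fold change of 1.04 with a standard error of 0.32 (adjusted p = 0.307). Lum, encoding lumican of the same proteoglycan family, had 0.95 with a standard error of 0.29 (adjusted p = 0.308), and Sparc, a collagen-binding glycoprotein of bone, 0.82 with 0.21 (adjusted p = 0.257). Without Control replicate 3, 11 of the 17 passed an adjusted p of 0.05, all of them higher.

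Genes that trim procollagen or cross-link fibrils were higher at an unadjusted p under 0.05 in 6 of 11, with none lower and a median of 0.46. Pcolce2, an enhancer of propeptide removal, had the largest log2 fold change of them, 1.37, at 2.49 ± 1.72 and 6.40 ± 2.78 CPM, followed by Loxl4, a relative of lysyl oxidase, at 0.98. Bmp1, the protease that removes the C-terminal propeptide, had 195 ± 54.0 and 284 ± 20.4 CPM, and Lox, the lysyl oxidase that starts cross-linking, 3412 ± 788 and 4967 ± 628 CPM (SD, n = 3). With that library left out, 8 of 12 were higher at an adjusted p under 0.05. Regulators of collagen transcription were higher in 5 of 14, with none lower and a median of 0.26. They included Sp7 (log2 fold change 0.88) and Runx2 (0.54), which are also among the osteoblast markers, Creb3l1 (0.91), known to drive type I collagen genes in osteoblasts, and Scx (1.08), a tendon factor. In the fit without Control replicate 3, 6 regulators were higher and 1 lower at an adjusted p under 0.05.

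Collagen receptors were higher in 3 of 9 and lower in 1, with a median of 0.21. Itga10, an integrin subunit, had a log2 fold change of 1.201, Ddr2, a receptor kinase for fibrillar collagen, one of 0.58, the endocytic receptor Mrc2 one of 0.44 and the leukocyte receptor Lair1 one of -0.33. Collagen-degrading proteases were higher in 3 of 7 and lower in 1, with a median of 0.51. Mmp14 (0.43), Mmp2 (0.51) and Fap (0.78) were the higher ones, and Mmp9, a marker of osteoclasts and other marrow cells, had a log2 fold change of -0.83. When that library was left out, 5 receptors were higher and 1 lower, and 4 proteases higher, at an adjusted p under 0.05.

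The other collagens were mixed. Of the 3 fibrillar chains outside the family described, Col24a1, at 5.12 ± 1.47 and 7.84 ± 0.7003 CPM, and Col2a1, at 69.2 ± 15.6 and 98.0 ± 18.3 CPM, were higher at an unadjusted p under 0.05. The chondrocyte markers, of which Col2a1 is a member, summed to 144 to 240.4 CPM in the controls and 275 to 326 CPM in Ni, with Col9a1 at 0 in every library and Acan at 0 in some. Most of this sum was Comp and Col2a1. Of the 5 chondrocyte markers tested, 4 were higher at an unadjusted p under 0.05, and Matn3 had a log2 fold change of -0.95. Of 4 fibril-associated chains tested, Col22a1 (log2 fold change 1.97) and Col16a1 (0.51) were higher and Col14a1 (-0.92) lower. Of 18 network, beaded and transmembrane collagens, 9 were higher and none lower, with a median of 0.49. The largest were Col13a1 (1.81) and Col25a1 (1.19), both transmembrane collagens at under 2 CPM on average, Col10a1 (1.02), the hypertrophic cartilage collagen, Col6a3 (0.96), Col15a1 (0.87) and Col6a2 (0.63). In the fit without Control replicate 3, 11 of these 18 passed an adjusted p of 0.05, as did 2 of the 3 other fibrillar chains and 2 of 5 fibril-associated chains, all of them higher.

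**Figure D5:**
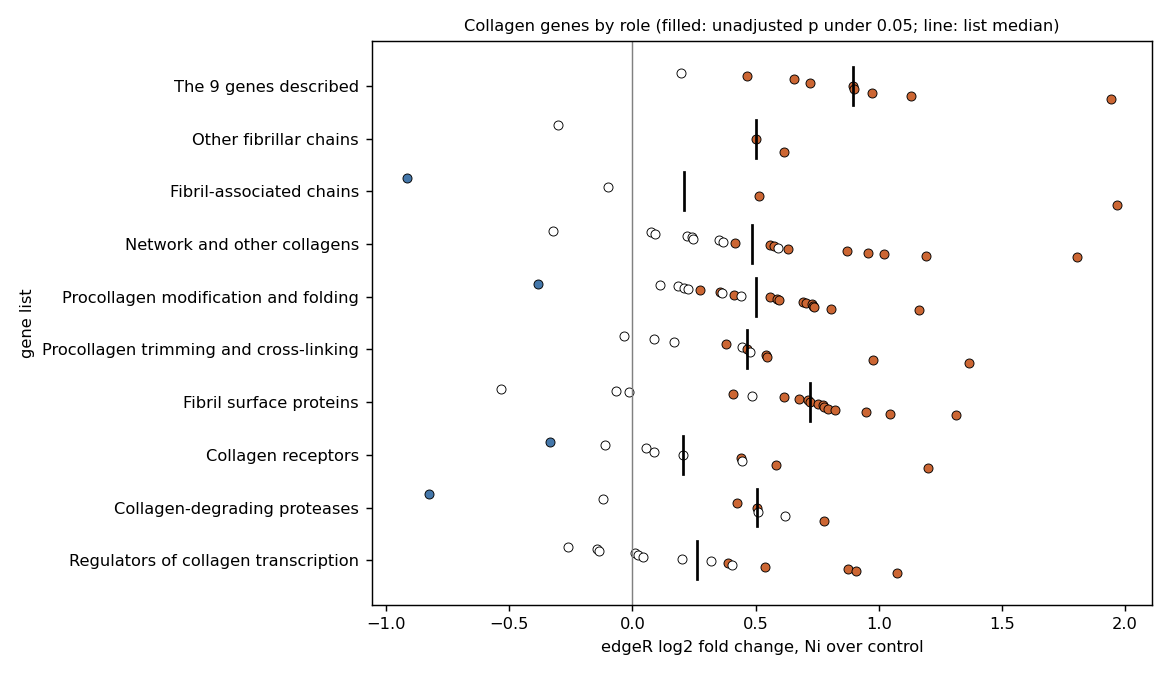
The edgeR log2 fold change of Ni over Control (horizontal axis) of every tested gene in the family described and in 9 lists of related genes, with the list median as a vertical line. Filled points have an unadjusted p under 0.05 (orange higher, blue lower), and no point passes an adjusted p of 0.05. The median of the 9 chain genes is 0.90, and that of the fibril surface proteins, 0.72, is the highest of the lists.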

How the data were processed

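RNA-seq libraries of 3 Control and 3 Ni cultures were analysed, grouped by the sample labels. The authors deposited raw read counts per gene, not normalized, and FPKM values, which are those counts over the length of the gene, scaled by a constant for each library (largest relative deviation 3.29e-07). The labels give the build GRCm38, and the aligner, counter and strand setting are not given in the sources used here. No deposited columns were left unmapped.

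Genes passing filterByExpr were normalized by TMM and fitted across the whole table with the robust quasi-likelihood test of edgeR (version 4.0.16, under R 4.3.3). P-values were adjusted by Benjamini-Hochberg over 14624 genes, with standard errors taken from the F statistic. DESeq2 1.42.0 and limma 3.58.1, with pseudocounts of 1 and 0.1 added to FPKM before log2, were alternatives, as were other scalings, filters, a replicate block and each library left out in turn. Each method was also run on data simulated with the means and dispersions fitted to these libraries, and the outcome is not reported here. Ratios were log2 FPKM differences within a library, compared by exact two-sided permutation (scipy 1.17.1). CPM are TMM-normalized, and log2 CPM used a prior count of 2. Libraries of a group were compared for duplicates (chi-square per degree of freedom 4.56 to 47.8), and none were found. The 9 genes and all lists were chosen with earlier results of these data known. Named are the 9 genes, the 5 genes most like the type I chains and some cell type markers. Of each list, up to 6 genes at an unadjusted p under 0.05 are named, largest change first. Col21a1 and Ccn2 were not matched by symbol and were not analysed here.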

Additional observations from a re-analysis of the deposited data

How the results depend on the processing

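All 9 log2 fold changes stayed positive under every alternative run. The count of the 9 genes at an adjusted p under 0.05 did not: it was 0 with all libraries in edgeR, 8 with no filter on low counts (2.55% of all genes then called higher), 7 with DESeq2, 9 with DESeq2 without Control replicate 3 (chosen after seeing the data), and from 0 to 8 with a library left out in edgeR. It was 8 without Control replicate 3 (8.69% of genes), 1 without Ni replicate 2 (0.08%) and 0 without any of the others (0.0%). The cause was not tested. With the replicate number as a block it was 4 (1.55% of genes), and 3 (1.31%) with a gene-length trend removed as well. Whether the numbers pair the samples is not stated. The deviations of same-numbered libraries correlated at 0.01, 0.26 and 0.14, and those of differently numbered ones at -0.22 to 0.065. So few pairs cannot decide it. From 6 to 9 genes were higher at an unadjusted p with a library left out, and the median log2 fold change ran from 0.71 (without Control replicate 1) to 1.21 (without Control replicate 3). The log2 ratio of Col5a2 to Col5a1 changed sign, to 0.043 without Control replicate 1 and 0.053 without Ni replicate 2, with a range of -0.11 to 0.053. The other 7 ratios kept their sign. With Col3a1 per Col1a1 the range was -0.79 to -0.63 and with Col5a3 per Col5a1 -0.82 to -0.64. With 3 libraries a group, the exact tests cannot fall under 0.1, and Col11a2 and Col5a3 rest on few counts.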
